A study of Mus musculus with 4 samples.

Results

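The genes described here are 10 mouse antiviral restriction factors: the interferon-induced transmembrane genes Ifitm1, Ifitm2, Ifitm3 and Ifitm6, together with Bst2, Samhd1, Trex1, Apobec1, Apobec3 and Adar. They were chosen by name for what their products do, and their rows were found by Ensembl gene ID among the 49315 genes of the count table. Transcript counts came from poly(A) RNA sequencing of bone marrow-derived macrophages, which are grown from marrow cells in medium conditioned by L cells. The 2 M1 libraries are from Lyz2Cre+ macrophages given LPS at 100 ng/ml and interferon gamma (IFNg) at 50 ng/ml, and the 2 M2 libraries are from Lyz2Cre+ macrophages given IL-4 at 10 ng/ml and IL-13 at 10 ng/ml. Both groups were polarized from day 7 of culture for 24 hours in serum-free medium. Both carry a Cre recombinase driven from the myeloid Lyz2 locus, and the mice's age and sex are not stated in the labels. Erlotinib, which blocks the kinase of the EGF receptor, was part of the study, and whether any of these 4 libraries received it is not stated in the labels. There was no unpolarized library, so "higher" and "lower" compare M1 with M2 and with nothing else.

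Restriction factors are host proteins that block steps of a virus's life cycle, and the genes of many of them are switched on by interferons through STAT and IRF transcription factors. IFITM proteins sit in cell membranes and hinder fusion of enveloped viruses, and BST2 (tetherin) holds budding virions at the cell surface. SAMHD1 breaks down deoxynucleotides and TREX1 digests DNA in the cytosol, while APOBEC and ADAR proteins deaminate bases in DNA or RNA. In human macrophages SAMHD1 is known for limiting HIV, whose reverse transcription needs deoxynucleotides.

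Promoters of the 4 genes that hold a match and of Apobec1, the gene lower in M1, are shown because the interferon-stimulated response element, to which IRF proteins bind, has a short core that can be read in them. Each stretch runs 5′ to 3′ on the gene's strand, from 170 bases before a RefSeq transcript start through the first 30 transcribed bases (build GRCm38.p6), and capitals mark every match on either strand to the GAAA pair, that is GAAA, any 2 bases and GAAA again.
Ifitm3, chr7:141010715-141010914, minus strand: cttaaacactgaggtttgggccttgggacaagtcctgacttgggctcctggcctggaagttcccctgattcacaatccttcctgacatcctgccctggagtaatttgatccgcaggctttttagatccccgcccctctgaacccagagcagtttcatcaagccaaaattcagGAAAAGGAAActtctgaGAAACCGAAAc
Ifitm2, chr7:140955932-140956131, minus strand: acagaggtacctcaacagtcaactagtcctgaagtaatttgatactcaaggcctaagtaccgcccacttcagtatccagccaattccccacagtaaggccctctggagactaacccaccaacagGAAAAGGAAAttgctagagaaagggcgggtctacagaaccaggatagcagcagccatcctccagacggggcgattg
Bst2, chr8:71537443-71537642, minus strand: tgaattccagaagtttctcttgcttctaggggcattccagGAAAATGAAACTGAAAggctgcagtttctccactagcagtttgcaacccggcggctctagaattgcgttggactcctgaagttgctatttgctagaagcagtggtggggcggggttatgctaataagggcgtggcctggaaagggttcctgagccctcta
Apobec3, chr15:79892238-79892437, plus strand: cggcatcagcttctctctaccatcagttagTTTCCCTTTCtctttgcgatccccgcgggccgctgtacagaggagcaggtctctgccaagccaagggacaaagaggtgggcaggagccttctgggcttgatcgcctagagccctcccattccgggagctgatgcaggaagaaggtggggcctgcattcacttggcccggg
Apobec1, chr6:122602415-122602614, minus strand: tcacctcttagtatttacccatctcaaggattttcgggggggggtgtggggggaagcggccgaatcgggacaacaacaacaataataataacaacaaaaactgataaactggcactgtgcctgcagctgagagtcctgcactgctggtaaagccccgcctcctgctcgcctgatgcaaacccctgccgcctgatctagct

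The GAAA pair was found in 4 of the 14 promoters that RefSeq gives for the 10 genes, each taken from 250 bases before to 50 after the start, against 3.44% of all 32851 promoters of the same length. Ifitm3 held it at positions 3 and 20 after the start, Ifitm2 at -46, Bst2 in an overlapping pair at -130 and -124, and Apobec3 at -140 on the other strand. The Apobec1 promoter held no match. Neither did the promoters of Ifitm1, Ifitm6, Samhd1 and Adar, which were higher in M1, or those of Trex1. The match thus did not separate the genes higher in M1 from Apobec1. The palindrome TTCNNNGAA, the core of a STAT dimer site, was found in promoters of Adar, Bst2, Ifitm3, Ifitm6 and Samhd1, against 8.30% of all promoters. In Ifitm3 its match at position 14 shares bases with the second GAAA pair, and in Bst2 its match at -136 shares bases with the first. The same palindrome with 4 bases in its gap was in 0 of the 14 promoters, against 6.95% of all. A different motif, GAANNGAA, which is not contained in the GAAA pair, was added after the data were seen. It was in 4 of the 14 promoters, of Adar, Apobec3, Ifitm1 and Ifitm6, against 20.1% of all promoters. These are matches of letters, and no binding was measured.

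The 4 libraries held 26806370 to 39506242 counts, and 14656 genes had counts high enough to be tested. Between M1 and M2, 77.2% of tested genes were called at an adjusted p under 0.05, 37.5% as higher in M1 and 39.7% as lower in M1, and the libraries of the groups did not overlap for 88.5%. The split depended on scaling: 48.6% of calls were higher in M1 with TMM and 28.1% with total counts alone, which moved the median log2 fold change of all genes by -0.45. Libraries of the same group differed beyond counting noise (chi-square per degree of freedom 13.3 in M1 and 2.30 in M2). The labels do not say whether they came from separate mice or cultures, and the p-values reflect the spread between them, which could be technical only.

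Of the 10 restriction factor genes 9 were tested, and all 9 were called, 8 as higher in M1 and 1, Apobec1, as lower in M1. The libraries of the groups did not overlap for any of the 9. Over all tested genes, 77.2% were called, 37.5% as higher in M1, and the groups did not overlap for 88.5%. Their median log2 fold change, M1 over M2, was 2.95, against -0.04 over all tested genes, and the median absolute log2 fold change was 2.95 against 0.76. The genes were chosen by name with results of these data known, so these counts describe them and were not tested as a list. Under total-count scaling, which shifts all genes towards M2, the same 8 genes remained higher in M1 and Apobec1 lower.

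**Figure D1:**
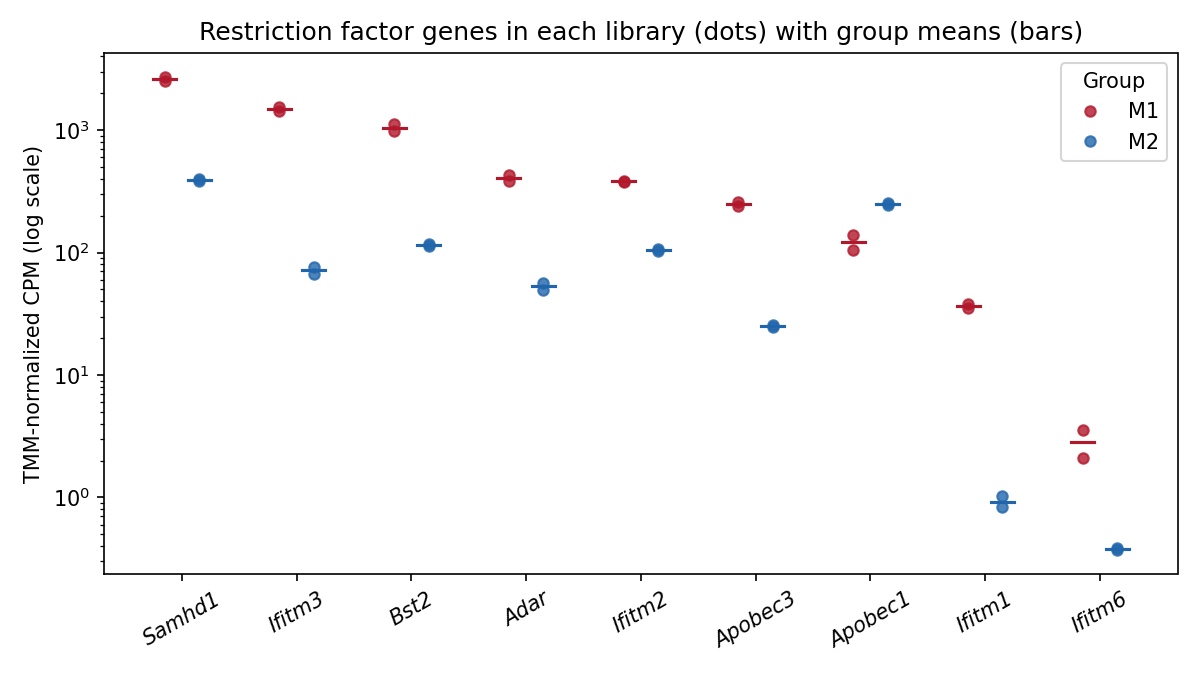
TMM-normalized CPM (log axis) of the 9 tested genes in each library, M1 in red left of M2 in blue, with dots for libraries and bars for group means (n = 2 each). Apobec1 is the gene whose M2 dots lie above its M1 dots, and Trex1 is not drawn because it had no counts.

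**Figure D2:**
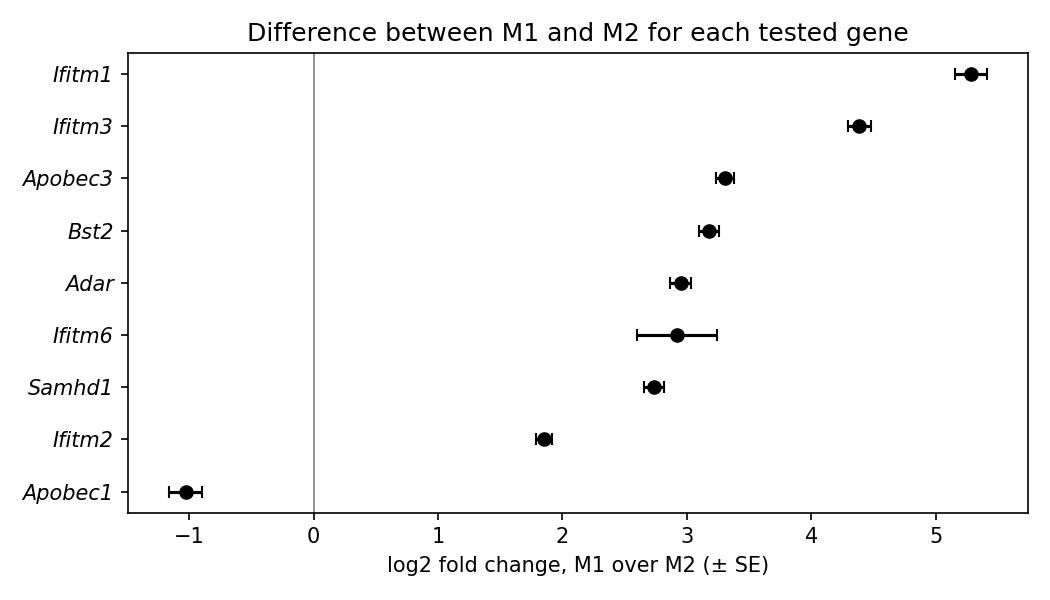
Log2 fold change, M1 over M2, of the 9 tested genes with its standard error (SE) from the edgeR quasi-likelihood test. Values run from 5.28 for Ifitm1 to -1.03 for Apobec1, with 5 genes between 2.74 and 3.31.

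Ifitm3 encodes the family member that guards endosomes against influenza virus and other enveloped viruses. It lies on chromosome 7 at 141009586 to 141010770, minus strand (GRCm38, as all gene positions here). Ifitm3 had 1550 and 1432 CPM in M1, against 76.7 and 66.2 CPM in M2. Both M1 libraries were far above both M2 libraries, where CPM are counts scaled to TMM-adjusted library totals. The log2 fold change was 4.38 (SE 0.09), a 20.9-fold higher level in M1 (edgeR quasi-likelihood adjusted p = 2.84e-15). In bulk RNA such as this, a change in the share of cells that express a gene and a change in RNA per cell cannot be told apart.

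Ifitm2, also an endosomal member in human cells, lies at 140954837 to 140955987 on the minus strand of the same chromosome. Ifitm2 had 379 and 381 CPM in M1, against 103 and 107 CPM in M2. Its difference was the smallest of the 4 Ifitm genes, with a log2 fold change of 1.85 (SE 0.06), 3.62-fold higher in M1 (edgeR quasi-likelihood adjusted p = 5.51e-13). The annotation gives 268 of its 655 exon bases (40.9%) also to Gm45717, a predicted gene with 0 counts in every library, so the level of Ifitm2 relative to other genes is uncertain.

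Ifitm1 encodes a member that in human cells acts mainly at the plasma membrane, and lies at 140967221 to 140969825 on the plus strand. Ifitm1 had 38.1 and 35.4 CPM in M1, against 0.830 and 1.02 CPM in M2. In counts, these were 1110 and 871 in M1 against 26 and 47 in M2, so the M2 level rests on few reads. The log2 fold change of 5.28 (SE 0.13), 38.9-fold higher in M1, was the largest among the 9 genes (edgeR quasi-likelihood adjusted p = 8.31e-15), and 97.7% of all tested genes had a lower one.

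Ifitm6, a mouse member of the family, lies at 141015699 to 141017924 on the minus strand. Ifitm6 had 3.54 and 2.12 CPM in M1, against 0.383 and 0.369 CPM in M2. Counts were 103 and 52 in M1 and 12 and 17 in M2. The M1 libraries of Ifitm6 stood further apart than those of the other Ifitm genes, and both were above both M2 libraries. Its log2 fold change was 2.92 (SE 0.32), 7.57-fold higher in M1 (edgeR quasi-likelihood adjusted p = 1.03e-06).

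The make-up of the Ifitm counts differed between the groups. Summed over the 4 genes, Ifitm CPM were 1970 and 1851 in M1, against 181 and 175 in M2. Ifitm3 took 78.6% (Wilson 95% interval 78.3% to 79.0%) and 77.4% (77.0% to 77.7%) of the Ifitm counts in the M1 libraries, against 42.4% (41.1% to 43.7%) and 37.9% (36.9% to 39.0%) in the M2 libraries. Ifitm2 took 19.2% and 20.6% in M1, against 57.0% and 61.3% in M2, so it was the larger part in M2 and the smaller part in M1. Ifitm3 counts were 4.09 and 3.75 times those of Ifitm2 in the M1 libraries, against 0.744 and 0.619 times in the M2 libraries. Ifitm1 took 1.93% and 1.91% in M1, against 0.458% and 0.584% in M2. Ifitm6 took 0.179% and 0.114% in M1, against 0.212% and 0.211% in M2. The intervals cover counting error only, and with 2 libraries a group no exact test of these shares can pass the threshold. Shares and ratios within a library also rest on the Ifitm2 level, which is uncertain because Gm45717 shares 40.9% of its exon bases.

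**Figure D3:**
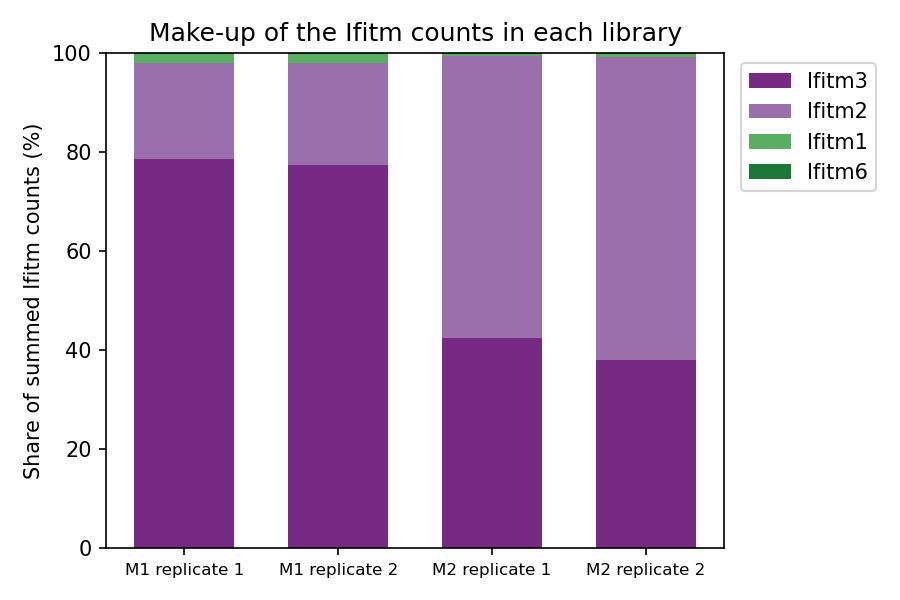
Share of the summed counts of Ifitm1, Ifitm2, Ifitm3 and Ifitm6 (percent) in each library, M1 left of M2, stacked from Ifitm3 at the bottom (Ifitm6 is too thin to see). Ifitm3 fills 77.4% to 78.6% of the M1 bars and 37.9% to 42.4% of the M2 bars.

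The 4 transcripts are alike in part, which bears on how reads can be assigned. Ifitm2 and Ifitm3 were 73.2% identical over 582 aligned positions of their longest transcripts. Of the 50-base windows of Ifitm2 transcripts, 48.5% were also found in another gene, against 10.0% for Ifitm3, 5.02% for Ifitm1 and 0 for Ifitm6. At the 150-base read length, 23.5% of Ifitm2 windows were shared, all of them with Gm45717, and 0 of Ifitm1, Ifitm3 or Ifitm6. The pseudogenes that share Ifitm windows held at most 4 counts in a library.

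The Ifitm genes form a cluster. Within 100 kb of it 8 genes other than the 4 described here were tested, of which 5 were higher in M1 (Bet1l, Psmd13, Gm15542, Ifitm5 and Sigirr), 1 was lower (Ric8a) and 2 were not called (Sirt3 and Pgghg). Their median log2 fold change was 0.50 and the highest was 2.62, of Ifitm5, a bone-specific family member that had 17 and 18 counts in M1 against 2 and 6 in M2. Ifitm5 lies next to Ifitm2 and had a higher log2 fold change than Ifitm2, on far fewer counts. Of all tested genes in the table, 37.5% were higher in M1 and 39.7% lower.

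**Figure D4:**
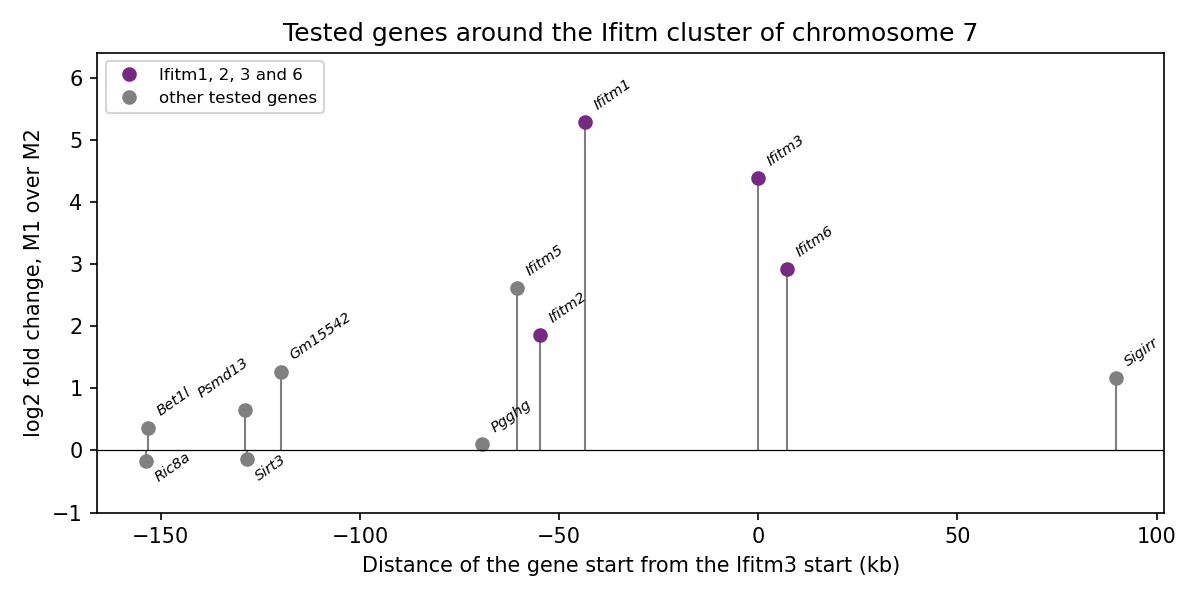
Log2 fold change, M1 over M2, of the 12 tested genes in and around the Ifitm cluster, against the distance of each gene's start from the Ifitm3 start in kilobases. Ifitm1 stands highest at 5.28 among the 4 genes in purple, and Ifitm5, at 2.62 the highest of the grey genes, stands above Ifitm2 at 1.85.

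Bst2, on chromosome 8 at 71534255 to 71537456, encodes tetherin. Bst2 had 1119 and 974 CPM in M1, against 117 and 114 CPM in M2. The M1 libraries were both far above the M2 libraries, which were nearly equal. This gave a log2 fold change of 3.18 (SE 0.08), 9.05-fold higher in M1 (edgeR quasi-likelihood adjusted p = 2.22e-14). Of its neighbours, Mvb12a, a subunit of the ESCRT-I sorting complex, had a log2 fold change of 0.77, and Ccdc194 had 0 counts in both M1 libraries against 10 and 13 in M2.

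Samhd1, on chromosome 2 at 157097533 to 157135265, encodes the deoxynucleotide hydrolase. Samhd1 had 2726 and 2492 CPM in M1, against 400 and 383 CPM in M2. The groups were far apart, and the M2 level was itself well measured, with 12515 and 17644 counts. The log2 fold change was 2.74 (SE 0.08), 6.67-fold higher in M1 (edgeR quasi-likelihood adjusted p = 7.04e-14). The 5 genes outside the list whose log2 CPM over the 4 libraries came nearest to that of Samhd1 were Hk3, a hexokinase, Atp1b3, a sodium pump subunit, Cybb, the catalytic subunit of the phagocyte NADPH oxidase, Slc15a3, a lysosomal peptide and histidine transporter, and Hmox1, haem oxygenase. Their mean absolute log2 distance from Samhd1 ran from 0.247 for Hk3 to 0.304 for Hmox1. Next to Samhd1, Rbl1, which encodes the p107 relative of the retinoblastoma protein, had a log2 fold change of 2.53, and Tldc2 had 23 and 24 counts in M1 against 0 and 3 in M2.

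Trex1, on chromosome 9 at 109057933 to 109059734, had 0 counts in all 4 libraries and was not tested. All 1147 of its exon bases also belong, on the same strand, to exons of Atrip, which encodes a partner of the ATR checkpoint kinase. Atrip had 20 and 29 counts in M1, against 17 and 33 in M2, and was not called (edgeR quasi-likelihood adjusted p = 0.192). Among protein-coding genes in the table, 101 of the 134 whose exon bases are all shared with other genes had 0 counts in every library (75.4%), against 4538 of the 15369 that share none (29.5%). Genes that share only part of their exon bases were at 0 less often, 8.68% with the smaller overlaps and 16.2% with the larger. How reads in shared exons were counted is not stated in the labels, and the 0 of Trex1 cannot be read as absence of its transcript. The next genes, Shisa5 and Tma7, had log2 fold changes of 0.07 and 0.21.

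Apobec3, the only Apobec3 gene of the mouse, encodes a cytidine deaminase that is packaged into retroviral particles, and lies on chromosome 15 at 79891659 to 79915906. Apobec3 had 260 and 238 CPM in M1, against 24.8 and 25.4 CPM in M2. Every M1 value was far above every M2 value. Its log2 fold change was 3.31 (SE 0.07), 9.91-fold higher in M1 (edgeR quasi-likelihood adjusted p = 2.34e-15). The genes on both sides went the other way, with log2 fold changes of -2.72 for Cbx6 and -1.01 for Pdgfb. D730005E14Rik, on the same strand, shares 676 of the 9454 exon bases of Apobec3 (7.15%). Cbx7, on the other strand, shares 100 of them (1.06%) and had a log2 fold change of -0.63.

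Apobec1, on chromosome 6 at 122577792 to 122602444, encodes the deaminase that edits C to U in messenger RNA, first known from apolipoprotein B. Apobec1 had 140 and 104 CPM in M1, against 243 and 255 CPM in M2. The M1 libraries were lower than both M2 libraries, although they differed from each other more than the M2 libraries did. This gave a log2 fold change of -1.03 (SE 0.13), 2.04-fold higher in M2 (edgeR quasi-likelihood adjusted p = 4.37e-04), and 22.2% of all tested genes had a lower one. A test for more than a 2-fold difference did not pass (edgeR glmTreat adjusted p = 0.487). Next to it, Gdf3, a growth factor of the TGF-beta family, had a log2 fold change of -4.51.

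Adar, on chromosome 3 at 89715022 to 89753446, encodes ADAR1, which turns adenosine into inosine in double-stranded RNA and so keeps self RNA from the sensor MDA5. Adar had 431 and 387 CPM in M1, against 56.6 and 49.5 CPM in M2. Both M1 libraries were well above both M2 libraries. The log2 fold change was 2.95 (SE 0.08), 7.73-fold higher in M1 (edgeR quasi-likelihood adjusted p = 2.03e-13). The library kit does not mark strand, and 1365 of the 8118 exon bases of Adar (16.8%) overlap exons of Chrnb2 on the other strand. Chrnb2 had 418 and 340 counts in M1, against 105 and 156 in M2, a log2 fold change of 2.06, and reads of the overlap cannot be told apart. Ube2q1, the next gene at higher coordinates, had a log2 fold change of 0.36. The counts do not separate the constitutive ADAR1 form from the interferon-induced form, which start from different promoters.

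Levels can be compared between genes only per length, as CPM per kilobase of merged exons (RPKM). In M1 the order of mean RPKM was Ifitm3 at 2199 ± 122, Bst2 at 1159 ± 114, Ifitm2 at 581 ± 2.47 and Samhd1 at 285 ± 18.1 (SD, n = 2 each). Below these came Adar at 50.3 ± 3.84 and Apobec1 at 45.2 ± 9.31, whose libraries overlapped, then Ifitm1 at 33.6 ± 1.73, Apobec3 at 26.3 ± 1.59 and Ifitm6 at 3.12 ± 1.11. In M2 the order was Ifitm2 at 160 ± 4.20, Bst2 at 128 ± 2.70, Ifitm3 at 105 ± 11.0, Apobec1 at 92.2 ± 3.01 and Samhd1 at 42.8 ± 1.28, followed by Adar at 6.53 ± 0.620, Apobec3 at 2.66 ± 0.0404, Ifitm1 at 0.846 ± 0.123 and Ifitm6 at 0.416 ± 0.0110. No other neighbours in these orders had overlapping libraries. Ifitm3 stood above Bst2 and Ifitm2 in M1 and below both in M2, and Apobec1 stood below Samhd1 in M1 and above it in M2. Both orders depend on the length used. With the longest transcript, Samhd1 reached 664 RPKM in M1 and passed Ifitm2. By that length Apobec3 reached 81.6 RPKM in M1 and passed Adar at 69.2 RPKM. In M2 the mean of Apobec1 reached 110 RPKM by that length and passed that of Ifitm3 at 105, but their libraries overlapped. Over exon bases that no other gene shares, a length added after the data were seen, Ifitm2 had 983 RPKM in M1 and 272 RPKM in M2.

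Most relatives of the 10 genes had few or no counts. Of 11 listed relatives 2 were tested, and 4 (Adarb2, Adad1, Adad2 and Trex2) had 0 counts in every library. The untested Ifitm7, Ifitm10, Apobec2 and Apobec4 had at most 9 counts in a library. Adarb1, which encodes the editing enzyme ADAR2, had 0.412 and 0.529 CPM in M1, against 1.34 and 1.85 CPM in M2. It was lower in M1, with a log2 fold change of -1.79 (SE 0.32; edgeR quasi-likelihood adjusted p = 1.15e-04), opposite in sign to Adar.

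Of the interferon signalling list of 16 genes, 13 were higher in M1, 1 was lower and 2 were not called. The shares over all tested genes were 37.5% higher and 39.7% lower. The median log2 fold change of the list was 2.35. Irf7, the factor that amplifies interferon responses, had 2829 and 2398 CPM in M1, against 10.6 and 9.99 CPM in M2 (log2 fold change 7.99, SE 0.12). Usp18, which removes ISG15 and dampens the receptor, had a log2 fold change of 6.44 (SE 0.12), and Stat2 of 4.43 (SE 0.09). Ifngr1, the ligand-binding chain of the interferon gamma receptor, was lower in M1, with 54.8 and 52.5 CPM in M1 against 134 and 136 CPM in M2 (log2 fold change -1.33, SE 0.06). Without M1 replicate 1, 2 genes of this list were lower in M1, 3 were with upper-quartile factors and 4 with total counts alone.

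Other restriction factors also stood mostly higher in M1: of 13 tested, 10 were higher, 2 were lower and 1 was not called. All tested genes split into 37.5% higher, 39.7% lower and the rest not called. The median log2 fold change of the list was 1.76. Isg15, the ubiquitin-like modifier, had 1150 and 1038 CPM in M1, against 6.64 and 4.86 CPM in M2, a log2 fold change of 7.60 (SE 0.13). Isg20, an exonuclease that degrades viral RNA, had a log2 fold change of 5.87 (SE 0.27), and Trim30a, a mouse TRIM protein, of 4.08 (SE 0.08). Serinc5, which is built into retroviral particles and lowers their infectivity, was lower in M1, with 7.76 and 6.59 CPM in M1 against 21.0 and 22.5 CPM in M2 (log2 fold change -1.60, SE 0.10). March8, a ubiquitin ligase that removes viral glycoproteins, was lower by a smaller amount (log2 fold change -0.27, SE 0.06). Under total-count scaling 4 genes of this list were lower in M1.

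**Figure D5:**
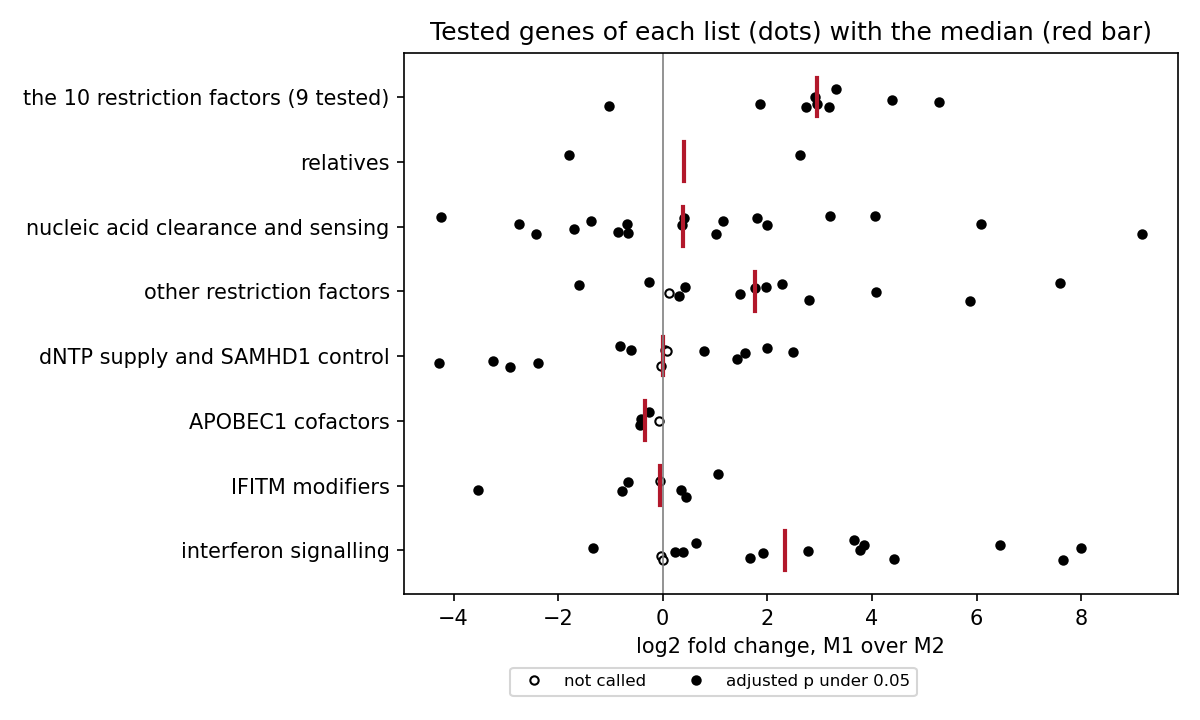
Log2 fold change, M1 over M2, of the tested genes of each list, with the median as a red bar, filled dots for an adjusted p under 0.05 in the edgeR quasi-likelihood test and open dots for genes not called. The medians lie at 2.95 for the 10 restriction factor genes (9 drawn), 2.35 for interferon signalling and 1.76 for other restriction factors, and between -0.34 and 0.41 for the other lists.

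Genes that clear or sense nucleic acids, the processes around Trex1 and Adar, went both ways: of 18 tested, 10 were higher and 8 lower in M1. Among all tested genes, 37.5% were higher and 39.7% lower. The median log2 fold change of the list was 0.39. Dnase1l3, a secreted nuclease that digests DNA of dead cells, had 431 and 378 CPM in M1, against 0.670 and 0.716 CPM in M2 (log2 fold change 9.17, SE 0.12). The sensors Zbp1, which binds left-handed nucleic acid, and Ifih1, which encodes MDA5, had log2 fold changes of 6.09 (SE 0.08) and 4.05 (SE 0.12). The lysosomal nucleases were lower in M1: Dnase2a had 32.5 and 31.0 CPM in M1 against 212 and 216 CPM in M2 (log2 fold change -2.75, SE 0.07), and Pld3 had a log2 fold change of -2.42 (SE 0.07). Enpp1, which hydrolyses the messenger cGAMP outside cells, had 1.34 and 0.813 CPM in M1 against 20.0 and 21.4 CPM in M2 (log2 fold change -4.24, SE 0.16).

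The list of genes for the supply of deoxynucleotides, the substrates of SAMHD1, and for the control of SAMHD1 was also divided. Its kinases Cdk1 and Cdk2 were not called, with log2 fold changes of 0.05 (SE 0.12) and 0.07 (SE 0.08). Of the 14 tested genes of the list, 5 were higher in M1, 6 were lower and 3 were not called, with a median log2 fold change of 0.01. For all tested genes the shares were 37.5% higher and 39.7% lower. Dck, the salvage kinase of deoxycytidine, had 297 and 234 CPM in M1 against 48.3 and 46.2 CPM in M2 (log2 fold change 2.49, SE 0.11). Cdkn1a, which encodes the p21 inhibitor of cyclin-dependent kinases, had a log2 fold change of 1.99 (SE 0.07), and Tyms, thymidylate synthase, of 1.58 (SE 0.13). Rrm2, the small subunit of ribonucleotide reductase, was lower in M1, with 0.721 and 0.610 CPM in M1 against 5.20 and 5.06 CPM in M2 (log2 fold change -2.93, SE 0.21). Dut, which breaks down dUTP, and Dctd, deoxycytidylate deaminase, had log2 fold changes of -4.27 (SE 0.19) and -3.25 (SE 0.31).

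Of the 4 tested cofactors of APOBEC1, 3 were lower in M1 and 1 was not called, with a median log2 fold change of -0.34. These were Rbm47, Celf2 and Syncrip, RNA-binding proteins tied to C-to-U editing, with log2 fold changes of -0.43 (SE 0.06), -0.41 (SE 0.06) and -0.26 (SE 0.06). A1cf, the classical cofactor, had 0 counts in every library. In the test for more than a 2-fold difference, 0 of these cofactors were lower in M1. Of 7 genes whose products modify or turn over IFITM proteins, 3 were higher, 3 lower and 1 not called, with a median of -0.06. Beside both lists, 37.5% of all tested genes were higher and 39.7% lower in M1. Nedd4, the ubiquitin ligase that marks IFITM3 for degradation, had 7.21 and 7.24 CPM in M1 against 81.4 and 86.1 CPM in M2 (log2 fold change -3.54, SE 0.08). Zmpste24, a protease that acts with IFITM proteins, and Zdhhc20, a palmitoyl transferase, had log2 fold changes of -0.77 (SE 0.07) and -0.66 (SE 0.06). Vcp, an ATPase that extracts ubiquitinated proteins, had a log2 fold change of 1.06 (SE 0.07). Smurf1, a ubiquitin ligase, and Setd7, which methylates IFITM3, had log2 fold changes of 0.44 (SE 0.06) and 0.36 (SE 0.07), which turned to -0.0115 and -0.0925 under total-count scaling. In the test for more than a 2-fold difference, 0 genes of this list were higher and 1, Nedd4, was lower in M1 (edgeR glmTreat adjusted p = 0.178 for Vcp).

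Macrophage markers summed to 5173 and 4953 CPM in M1 against 4444 and 4334 CPM in M2, while single markers moved both ways. Of the 7, 5 were higher in M1, with log2 fold changes from 1.22 for Adgre1 to 4.75 for Fcgr1. The other 2, Csf1r and Cd68, were lower, at -2.64 and -3.39. Lyz2, the locus that carries Cre, was low for macrophages, with 25.3 and 27.3 CPM in M1 against 6.51 and 6.88 CPM in M2. The summed markers of B cells, T and NK cells, mast cells and basophils, erythroid cells and neutrophils came to at most 10.0 CPM in a library, and Ms4a2 of mast cells was at 0. Fibroblast markers summed to 118 and 109 CPM in M1 against 1137 and 1162 CPM in M2, with 4 of 5 lower in M1. Endothelial markers summed to 283 and 261 CPM in M1 against 8.97 and 10.3 CPM in M2, from Pecam1 and Kdr, while Cdh5 and Emcn were under 1 CPM in every library. Conventional dendritic cell markers summed to 49.7 and 51.3 CPM in M1 against 787 and 770 CPM in M2. Of these 4 markers, Itgax and Zbtb46 were lower in M1 and Xcr1 and Flt3 higher, and Itgax made up most of the M2 sum, while Xcr1, with 30.9 and 31.9 CPM in M1 against 0.0638 and 0.0868 CPM in M2, made up most of the M1 sum. The sum of plasmacytoid dendritic cell markers was 91.3 and 86.7 CPM in M1 against 66.9 and 68.7 CPM in M2, mostly Tcf4. These marker sums moved with the groups, and their part in the results for the restriction factor genes was not tested.

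Between the M1 libraries, replicate 1 was above replicate 2 for 8 of the 9 tested restriction factor genes, with a median log2 difference of 0.13 against 0.01 over all tested genes. Between the M2 libraries, replicate 1 was above replicate 2 for 5 of the 9, with a median log2 difference of 0.04. The widest gaps between the M1 libraries were those of Ifitm6, at a log2 difference of 0.74, and Apobec1, at 0.42 beside its log2 fold change of -1.03 between M1 and M2.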

How the data were processed

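Poly(A) RNA of 4 libraries was sequenced as paired 150-base reads from a kit that does not mark strand, per the labels' protocols. The authors deposited whole-number read counts per gene, not normalized. Per the submitters' processing notes the build was GRCm38, and the tools they name include STAR 2.5.2b, Trimmomatic 0.36, DESeq, DESeq2, Subread 1.5.2 and featureCounts, with no role or setting given. The authors' comparison table was not used here.

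Gene IDs were matched to GENCODE vM21 (GRCm38), which gave 49056 of 49315 a symbol. Counts were fitted for all genes with edgeR 4.0.16 in R 4.3.3: filterByExpr (minimum count 10, minimum total 15), TMM, robust quasi-likelihood F test of M1 over M2, two-sided, Benjamini-Hochberg adjustment over all tested genes, calls at an adjusted p under 0.05. TMM factors were 0.846 and 0.866 in M1 and 1.17 and 1.17 in M2. SE is the size of the log2 fold change over the square root of F. The common biological coefficient of variation was 0.0528. The fit was tested on simulated data, where it recovered 64.2% of changes of log2 0.5, 83.1% of log2 1 and 97% of log2 2. Alternatives used DESeq2 1.42.0 and limma 3.58.1. A gene with no count in a whole group was also entered in its list's median at a floor of 3 counts over the group, which changed no median.

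The genes, the lists of related genes and the markers were chosen with earlier results of these data known. Every chosen gene is named. Of each list of related genes, the 3 called genes with the largest change in each direction are named where their mean reached 1 CPM, together with the nearest protein-coding genes and the 5 genes nearest to Samhd1 in log2 CPM. Atrip, Chrnb2, Cbx7, Gm45717, Cdk1, Cdk2 and the genes within 100 kb of the Ifitm cluster were named after their values were seen. So were the relatives at or near 0 counts and the markers named singly. Symbols listed under both an older and a newer name (for Cgas, Tmem173 and March8) count once. Some genes that the rule names are not reported here. Replicates were numbered in accession order and pair nothing. Promoters are from RefSeq (GRCm38.p6), and transcripts were aligned locally with Biopython 1.88.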

Additional observations from a re-analysis of the deposited data

How the results depend on the processing

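The log2 fold changes of the 9 tested genes kept their direction and their side of the threshold in 124 of 125 combinations of gene and alternative. The exception was Apobec1 in the test beyond a 2-fold difference (adjusted p = 0.487, log2 fold change -1.03), where 0 of the genes were lower in M1. Log2 fold changes ran over all alternatives from 4.83 to 5.45 for Ifitm1, 3.94 to 4.48 for Ifitm3, 1.41 to 1.88 for Ifitm2, 2.47 to 3.23 for Ifitm6 and -1.48 to -0.83 for Apobec1. Ifitm6 has no value under a filter of 5 CPM. In the test beyond a 2-fold difference 4840 genes differed, 2163 higher and 2677 lower in M1, and 13 genes of the related lists were lower, among them 5 of nucleic acid clearance and sensing and 1 of the other restriction factors. Total-count scaling gave 3342 genes higher in M1, and Smurf1 (-0.0115) and Setd7 (-0.0925) turned negative. Of the combinations for related genes named, 421 kept their call. Those 2 genes lost theirs with the change of sign (adjusted p = 0.232 for Setd7 and 0.866 for Smurf1), and 9 lost theirs in the test beyond a 2-fold difference (Celf2, March8, Rbm47, Setd7, Smurf1, Syncrip, Vcp, Zdhhc20 and Zmpste24). DESeq2 called 9987 genes. Leaving out a library gave 10167 to 11525 genes differing, 4936 to 5616 higher and 5231 to 5909 lower in M1, with 8 restriction factor genes higher and 1 lower each time, and 41 to 43 related genes higher and 24 to 25 lower. A group left with 1 library is assumed there to vary like the other. The causes were not tested. No paired analysis was possible because replicate numbers were given in accession order. Depth limits Ifitm1 and Ifitm6 in M2, with 12 to 47 counts a library.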
